A study of Homo sapiens with 6 samples.

Results

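The EMT transcription factors described here are SNAI1, SNAI2, SNAI3, ZEB1, ZEB2, TWIST1, TWIST2 and PRRX1, 8 of the 23406 features in the deposited tables, chosen by name and matched to the tables through their Ensembl identifiers. They were measured by RNA sequencing in Hep3B, a human hepatocellular carcinoma line of epithelial form. All cells were transduced with a lentivirus and selected with puromycin; 3 libraries came from cells with a control shRNA (shControl) and 3 from cells with an shRNA against NXN (shNXN), the gene for nucleoredoxin, a protein of the thioredoxin family. Each group had 1 library from day 7, 1 from day 9 and 1 from day 11, and these 3 served as its replicates. The labels do not give the hairpin used or say whether the days were separate transductions, so the spread between replicates mixes the day with any other difference between libraries, and what is seen may belong to a single hairpin or transduction.

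Epithelial-to-mesenchymal transition (EMT) is the change in which epithelial cells lose their junctions and gain a spindle shape and motility. SNAI1 (Snail) and SNAI2 (Slug) are zinc finger repressors that bind E-box motifs in the promoters of E-cadherin and other junction genes, and SNAI3 (Smuc) is a less studied relative. ZEB1 and ZEB2 carry zinc finger clusters and a homeodomain and also act on E-boxes, TWIST1 and TWIST2 are basic helix-loop-helix factors that bind DNA as dimers, and PRRX1 is a paired-related homeobox factor of mesenchyme. Snail is a short-lived protein whose amount is set to a large degree by phosphorylation and ubiquitin-dependent degradation, so a transcript level need not follow the protein.

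The libraries held between 15349382 and 16332589 counts each. NXN, the targeted gene, was counted at 154 ± 23.4 CPM (counts per 1000000 counts of the library) in shControl and 43.2 ± 4.03 CPM in shNXN cells (SD, n = 3), and its log2 fold change was -1.83 ± 0.16 (standard error; edgeR adjusted p = 0.0378, without a block). It stayed between -1.9 and -1.67 with any 1 library left out, and its call was lost without the day 7 or the day 11 library of shControl or the day 7 or the day 9 library of shNXN. The 9 hepatocyte and hepatoma markers examined were counted in every library, with a summed level of 12700 to 23300 CPM in shControl and 6420 to 14800 CPM in shNXN cells. Of the 8 fibroblast markers 3 were counted in every library, and THY1 was at 0. The sum of all 8 was 5.17 to 7.36 CPM in shControl and 6.68 to 8.82 CPM in shNXN cells. Of the 5 leukocyte markers 2 were counted in every library, and CD3E was at 0. The sum of all 5 was 96.9 to 162 CPM in shControl and 154 to 288 CPM in shNXN cells. Endothelial and erythroid markers were at or near 0 (VWF, KDR, HBB and HBA2 at 0), and the part of these markers in the results was not tested. In bulk samples, fewer cells with a transcript and less of it per cell cannot be told apart.

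Promoter sequences were available in the RefSeq table (GRCh38.p14) for 4 of the 8 genes, and 2 are shown because E-boxes are the motif through which the SNAI and ZEB proteins act and because ZEB1 and PRRX1 were both lower in shNXN cells. Each line gives the 250 bases before a start site on the + strand, 5′ to 3′, with the E-box letters CACCTG or CAGGTG (each the reverse complement of the other, so both strands were covered) in capitals. For ZEB1 the start shown is the one of its 7 listed starts with the most matches, a choice made on the sequence.
ZEB1, chr10:31318966-31319215: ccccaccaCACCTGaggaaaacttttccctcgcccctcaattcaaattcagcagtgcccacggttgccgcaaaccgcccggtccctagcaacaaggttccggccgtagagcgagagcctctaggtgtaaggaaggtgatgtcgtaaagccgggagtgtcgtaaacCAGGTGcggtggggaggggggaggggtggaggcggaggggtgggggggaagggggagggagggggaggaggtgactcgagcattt
PRRX1, chr1:170663881-170664130: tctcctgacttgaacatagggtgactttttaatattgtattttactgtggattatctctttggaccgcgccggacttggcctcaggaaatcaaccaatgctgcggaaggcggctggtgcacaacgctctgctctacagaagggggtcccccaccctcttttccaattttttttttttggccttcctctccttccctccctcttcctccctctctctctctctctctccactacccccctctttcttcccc
The ZEB1 stretch held 2 matches, which began at positions -242 and -85 from the start, and the PRRX1 stretch held none of these letters. Of the other listed ZEB1 starts, that with the stretch 31318167 to 31318416 held 1 match, at -57, and the rest held none. Of the 35116 promoters in the table, 17.5% held at least 1 match in the same 250 bases. That share is per single promoter and does not compare with a ZEB1 start picked for its matches. A match is a description of the letters and not a measured binding site.

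In the annotation used for gene positions (GENCODE 29, build GRCh38), all 8 were protein-coding genes. SNAI1 lies on chromosome 20 from 49982999 to 49988886, SNAI2 on chromosome 8 from 48917604 to 48921740 and SNAI3 on chromosome 16 from 88677682 to 88686493. ZEB1 spans 31318495 to 31529814 on chromosome 10, and ZEB2 spans 144364364 to 144524583 on chromosome 2. TWIST1 lies on chromosome 7 from 19020991 to 19117672, TWIST2 on chromosome 2 from 238848032 to 238910543 and PRRX1 on chromosome 1 from 170662728 to 170739419. The build of the deposited tables is not known, since the submitters' notes name mouse builds while the identifiers are human, so these positions are those of the annotation alone. The whole 8812 bases of SNAI3 overlap an antisense gene, SNAI3-AS1, and ZEB1, ZEB2 and TWIST1 also overlap antisense genes. On its own strand PRRX1 overlaps a lincRNA gene, Z97200.1, over 2045 bases, and ZEB1 and ZEB2 also overlap genes on their own strand. None of these partners has a row of its own in the tables used here. The strand used in counting is not given in the sources used here, and stranded counting would not set same-strand partners apart. The overlaps are those of whole gene spans with their introns, and overlap of exons was not checked. Whether reads of the partners were counted for SNAI3, ZEB1, ZEB2, TWIST1 and PRRX1 is therefore not known.

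Between shNXN and shControl cells the 8 transcripts did not move in 1 direction. SNAI1, SNAI3 and TWIST1 were higher in all 3 shNXN libraries than in any shControl library, SNAI2 and PRRX1 were lower in all 3, ZEB1 was lower on each day with overlapping groups, ZEB2 was at a few counts and TWIST2 at 0. In CPM, 5 of the 6 members that passed the filter on low counts had groups that did not overlap, where 40.6% of all 14071 tested features did. In the fit across all features without a block, 0 of the 6 passed an adjusted p of 0.05 (edgeR's quasi-likelihood test), against 3.39% of all features, and 3 had an unadjusted p under 0.05 (SNAI2, TWIST1 and PRRX1), against 32.9%. The replicate number marks the day in the labels, and with it as a block 4 of the 6 passed, against 23.3%, while DESeq2 without the block called 2, against 23.5%. TWIST1 is counted among the tested members although it passed the filter only through its shNXN libraries, where it is higher.

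**Figure D1:**
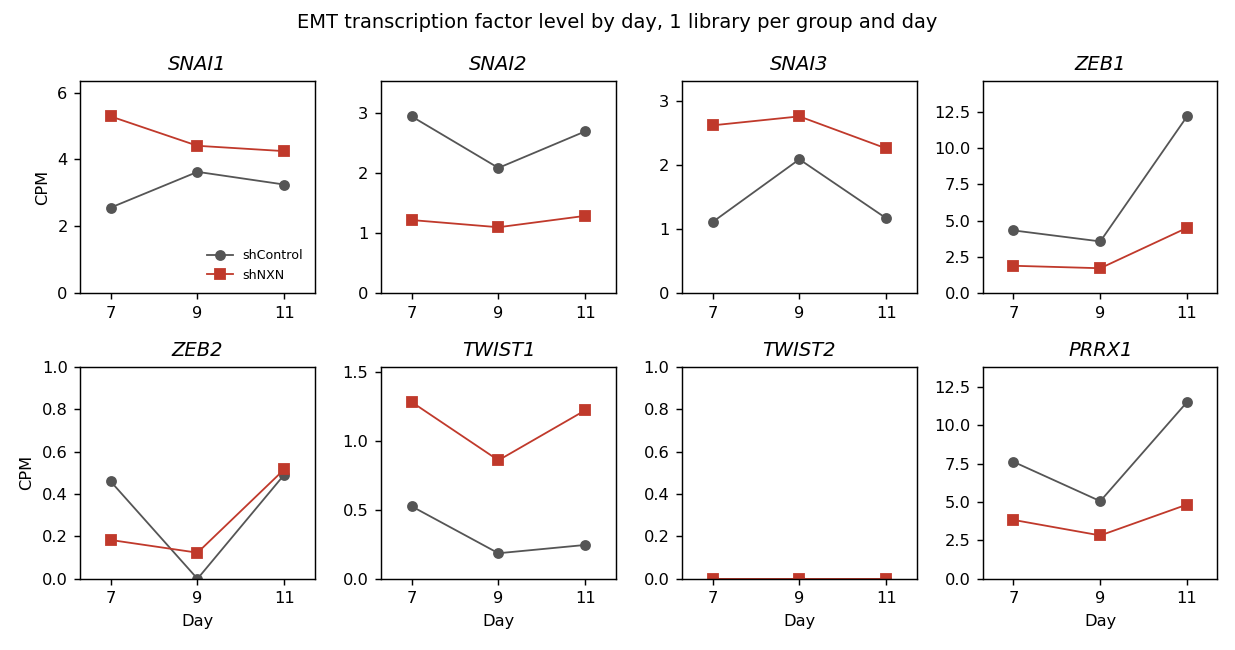
Level in CPM of each EMT transcription factor (vertical axes from 0, each panel with its own scale) against day, with 1 library per group and day joined by lines within shControl (circles) and shNXN (squares). SNAI1, SNAI3 and TWIST1 lie above the control on each day, SNAI2, ZEB1 and PRRX1 below it, ZEB2 crosses and the TWIST2 points of both groups coincide at 0.

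SNAI1, which represses E-cadherin, had 39, 59 and 53 counts in the shControl libraries of days 7, 9 and 11 and 87, 72 and 66 in the shNXN libraries of the same days. Each shNXN library was above each shControl library, and the highest count was that of shNXN on day 7. The level was 3.15 ± 0.544 CPM in shControl and 4.65 ± 0.56 CPM in shNXN cells (SD, n = 3), with a fitted log2 fold change of 0.56 ± 0.26 (standard error). This difference did not pass the test without the block (adjusted p = 0.179 from edgeR) or with it (log2 fold change 0.57, adjusted p = 0.145). In FPKM, the deposited value scaled to transcript length and library size, the groups also did not overlap, with 1.78 to 2.52 in shControl and 2.93 to 3.89 in shNXN cells.

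SNAI2, the relative of SNAI1 with the same E-box preference, had 45, 34 and 44 counts in shControl and 20, 18 and 20 in shNXN cells on days 7, 9 and 11. The 3 shNXN libraries were close to each other and all below the control range. The level was 2.58 ± 0.441 CPM in shControl and 1.2 ± 0.0937 CPM in shNXN cells (SD, n = 3), with a fitted log2 fold change of -1.1 ± 0.3 (standard error; edgeR adjusted p = 0.0725). With the replicate block the transcript passed the test at almost the same size (-1.09, adjusted p = 0.0474 from edgeR). DESeq2 called it too, with a log2 fold change of -1.08 and an adjusted p of 0.0366.

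SNAI3 had 17, 34 and 19 counts in shControl and 43, 45 and 35 in shNXN cells on days 7, 9 and 11. The lowest shNXN count, 35 on day 11, was next to the highest control count, 34 on day 9, so the groups were separated by a narrow gap. The level was 1.46 ± 0.55 CPM in shControl and 2.54 ± 0.259 CPM in shNXN cells (SD, n = 3), with a fitted log2 fold change of 0.8 ± 0.35 (standard error). It did not pass the test without the block (adjusted p = 0.159 from edgeR) or with it (0.84, adjusted p = 0.0925). The antisense gene that covers the span of SNAI3 may share unstranded counts with it, which was not checked.

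ZEB1, a repressor of E-cadherin and of polarity genes, had 66, 58 and 199 counts in shControl and 31, 28 and 70 in shNXN cells on days 7, 9 and 11. In both groups the day 11 library stood above the other two, and the shNXN count of day 11 was above the shControl counts of days 7 and 9, so the groups overlapped while each day had the lower count in shNXN. The level was 6.7 ± 4.78 CPM in shControl and 2.7 ± 1.57 CPM in shNXN cells (SD, n = 3), with a fitted log2 fold change of -1.31 ± 0.6 (standard error; edgeR adjusted p = 0.172). With the block, which takes out the day, the standard error was 0.22 and the transcript passed the test (-1.24, adjusted p = 0.0246 from edgeR). Without both day 11 libraries, a setting that keeps the days matched and was added after seeing the data, 4519 of 14201 features passed. There the log2 fold change of ZEB1 was -1.13 (adjusted p = 0.0369 from edgeR). Without the shControl library of day 11 alone, which leaves the high shNXN library of that day unmatched, it was -0.5 (adjusted p = 0.479 from edgeR). In FPKM the values on days 7, 9 and 11 were 1.48, 1.85 and 2.87 in shControl and 0.77, 0.65 and 1.61 in shNXN cells. The log2(FPKM + 1) difference was -0.61 (adjusted p = 0.147 from limma). The CPM per FPKM of ZEB1 also varied, with 2.92, 1.93 and 4.25 in shControl and 2.45, 2.64 and 2.8 in shNXN cells.

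ZEB2, the second factor of the pair, was near the limit of counting. It had 7, 0 and 8 counts in shControl and 3, 2 and 8 in shNXN cells on days 7, 9 and 11, and did not pass the filter. A count of 3 has an exact 95% Poisson interval of 0.619 to 8.77, which covers counting error only. The groups overlapped, and the two-sided exact permutation test of log2 CPM gave p = 0.9 (n = 3 per group, where the smallest possible p is 0.1). No direction was detectable at this depth.

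TWIST1, which activates N-cadherin and represses E-cadherin, had 8, 3 and 4 counts in shControl and 21, 14 and 19 in shNXN cells on days 7, 9 and 11. Each shNXN library was above the control range. The exact 95% Poisson intervals, which cover counting error only, overlapped on day 7 (3.45 to 15.8 against 13 to 32.1 counts) and day 9 (0.619 to 8.77 against 7.65 to 23.5) and were apart on day 11 (1.09 to 10.2 against 11.4 to 29.7). The level was 0.318 ± 0.181 CPM in shControl and 1.12 ± 0.229 CPM in shNXN cells (SD, n = 3), with a fitted log2 fold change of 1.8 ± 0.48 (standard error; edgeR adjusted p = 0.07), which is the largest size among the 6 tested members in that fit. With the replicate block it passed the test (1.84, adjusted p = 0.0394 from edgeR). TWIST1 passed the filter on low counts only through its shNXN libraries, since its shControl libraries had 8 counts or fewer. Its size and its call thus come from a gene kept for the group where it is high, and they are not separate support for a difference. DESeq2 gave 1.85 with no adjusted p, since its own filter on low counts set this gene aside.

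TWIST2 had 0 counts and was listed at 0 FPKM in all 6 libraries, the only member with none. As a one-sided limit for counting error only, a count of 0 allows up to 3 counts, or 0.184 to 0.195 CPM in these libraries (the two-sided 95% Poisson interval used above for ZEB2 would end at 3.69 counts). TWIST1 in shControl cells, at 0.185 to 0.525 CPM, lay at or little above that limit, so TWIST2 was not detectable at this depth and no fold was computed.

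PRRX1 had 116, 82 and 188 counts in shControl and 63, 46 and 75 in shNXN cells on days 7, 9 and 11, the most counts of any member in shControl on days 7 and 9. In both groups day 9 was lowest and day 11 highest, and each shNXN library was below each shControl library. The level was 8.06 ± 3.27 CPM in shControl and 3.83 ± 1.01 CPM in shNXN cells (SD, n = 3), with a fitted log2 fold change of -1.07 ± 0.37 (standard error; edgeR adjusted p = 0.108). It passed the test with the block (-1.03, adjusted p = 0.0296 from edgeR) and in DESeq2 (-1.06, adjusted p = 0.0419). Without both day 11 libraries the log2 fold change was -0.92 (adjusted p = 0.0725 from edgeR), and without the shControl library of that day alone, which leaves the days unmatched, -0.67 (adjusted p = 0.226 from edgeR). In FPKM the separation was lost: the values were 3.64, 2.11 and 4.58 in shControl and 3.32, 2.77 and 2.06 in shNXN cells, with a log2(FPKM + 1) difference of -0.23 (adjusted p = 0.561 from limma, in which 0 of the 6 members and 2.04% of all features passed). The reads behind 1 FPKM of PRRX1 were not constant, with 2.09 to 2.52 CPM per FPKM in the 3 shControl libraries and 1.15, 1.02 and 2.35 in the shNXN libraries, and the lengths used for the deposited FPKM values are not given in the sources used here.

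Compared per transcript length, the members were all below the median of the features with any FPKM. In shControl cells the order of mean FPKM was PRRX1 (3.44 ± 1.25), SNAI1 (2.21 ± 0.386), ZEB1 (2.07 ± 0.72), SNAI2 (1.39 ± 0.225), SNAI3 (0.987 ± 0.359), TWIST1 (0.24 ± 0.121), ZEB2 (0.133 ± 0.146) and TWIST2 at 0 (SD, n = 3). PRRX1, the highest, stood at percentile 44.6 of those features. Of the neighbours in this order, only SNAI3 and TWIST1 had ranges that did not overlap, so the others did not differ beyond their spread. In shNXN cells the order was SNAI1 (3.34 ± 0.494), PRRX1 (2.72 ± 0.632), SNAI3 (1.77 ± 0.229), ZEB1 (1.01 ± 0.523), TWIST1 (0.99 ± 0.44), SNAI2 (0.667 ± 0.0404), ZEB2 (0.3 ± 0.286) and TWIST2 at 0. Here the ranges were apart between PRRX1 and SNAI3, between SNAI2 and ZEB2 and between ZEB2 and TWIST2. The other neighbours, among them SNAI1 and PRRX1 and also TWIST1 and SNAI2, had overlapping ranges.

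**Figure D2:**
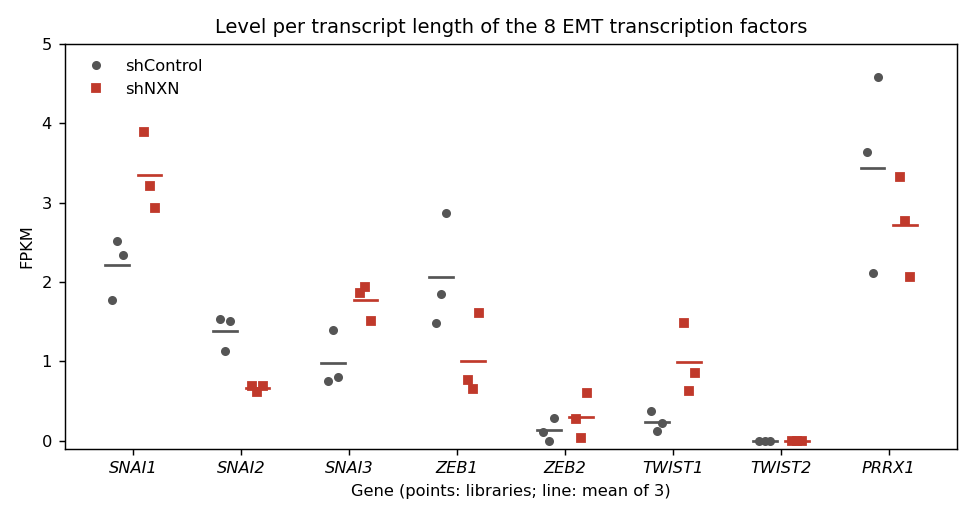
FPKM of the 8 EMT transcription factors on a linear axis, with 1 point per library (circles shControl, squares shNXN) and a line at the mean of 3. In shControl cells the 5 genes from PRRX1 to SNAI3 have means between 0.987 and 3.44, TWIST1 and ZEB2 are below 0.4 in every library, and the PRRX1 points of the groups overlap.

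By day, with 1 library per group, the log2 CPM difference of shNXN minus shControl had 1 sign on all 3 days for 6 members, and whether days differ could not be tested. SNAI1 was higher by 1.01 on day 7, 0.27 on day 9 and 0.38 on day 11, so its largest difference was on the first day. TWIST1 was higher by 1.11, 1.67 and 1.87 on these days and SNAI3 by 1.15, 0.38 and 0.88. Of the factors that were lower, SNAI2 gave -1.2, -0.85 and -1, ZEB1 gave -1.15, -1 and -1.41, and PRRX1 gave -0.97, -0.81 and -1.23. ZEB2 gave -0.93, 0.99 and 0.06, with 8 counts or fewer behind each value.

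The directions followed the base composition of the transcripts. SNAI1, SNAI3 and TWIST1, the 3 that were higher in shNXN cells, have longest transcripts of 58.2%, 65.4% and 57.2% GC, above the median of 48.4% over the tested features. SNAI2, ZEB1 and PRRX1, the 3 that were lower, have 41.4%, 38.5% and 41% GC. Over the 12740 tested features with a GC value, Spearman's correlation of the log2 fold change with GC content was 0.789, a description across features of the same 6 libraries. Features within 1 percentage point of the GC content of ZEB1 had a median log2 fold change of -1.09, beside -1.31 for ZEB1 itself, and those near SNAI2 and PRRX1 had medians of -0.7 and -0.75, beside -1.1 and -1.07. For the GC-rich members the medians were 0.35 near SNAI1 and near TWIST1 and 0.37 near SNAI3, beside 0.56, 1.8 and 0.8.

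**Figure D3:**
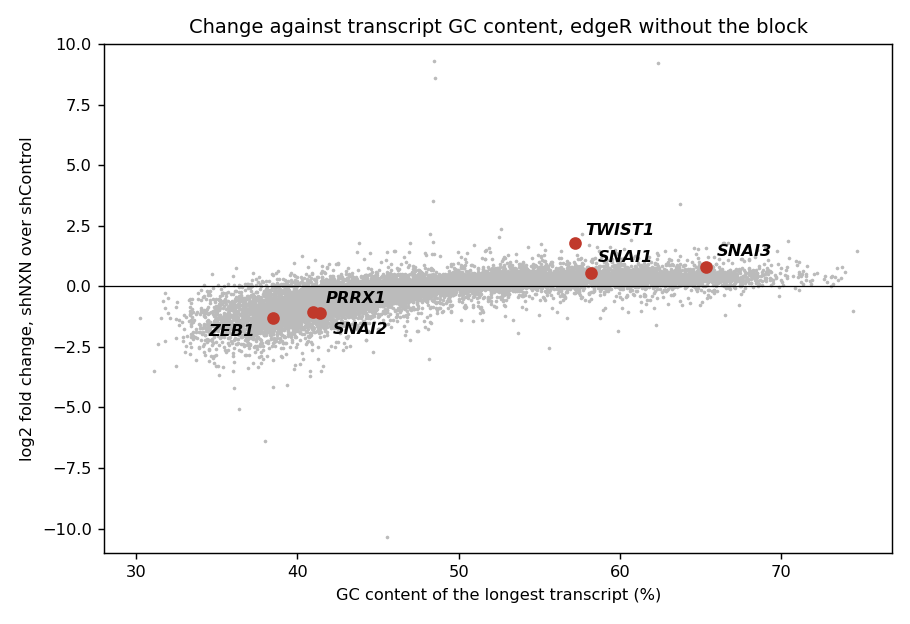
Log2 fold change of shNXN over shControl in edgeR without the block (vertical axis) against the GC content of the longest transcript in percent (horizontal axis), with grey points for the 12740 tested features with a GC value and red points for the 6 tested EMT transcription factors. SNAI2, ZEB1 and PRRX1 lie in the GC-poor part where most features are below 0, SNAI1 and SNAI3 lie in the GC-rich part where most are above 0, and TWIST1, at 1.8, stands above most features of its GC content.

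When each library's trend on GC content was removed, no member passed the test, without the block (0.0355% of all features did) or with it (0.924%). In both fits TWIST1 was the 1 of the 6 tested members with an unadjusted p under 0.05. Over all 14071 features, 2409 had such a p without the block and 3011 with it. The log2 fold changes were then 0.22 for SNAI1, -0.33 for SNAI2, 0.4 for SNAI3, -0.24 for ZEB1 and -0.26 for PRRX1, with adjusted p between 0.608 and 0.864 from edgeR. Each of these 5 kept its sign and lost at least a part of its size. TWIST1 kept most of its size, with 1.48 (standard error 0.49, adjusted p = 0.199 from edgeR), and with the block and the correction together 1.51 (standard error 0.45, adjusted p = 0.141 from edgeR). It passed the filter on low counts only through its shNXN libraries, so these values are not separate support for a difference. By day, the corrected difference of TWIST1 was 0.74, 1.29 and 1.6 on days 7, 9 and 11, and that of SNAI3 was 0.79, 0.07 and 0.3. The corrected difference changed sign between days for the other tested members. It was 0.63, -0.11 and 0.11 for SNAI1 and -0.34, 0.14 and -0.56 for SNAI2. For ZEB1 it was 0.11, 0.29 and -0.62, and for PRRX1 -0.04, 0.24 and -0.75. The correction also takes out a real difference between the cells where it runs along GC content, and such a difference and one made in the library preparation cannot be told apart here.

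**Figure D4:**
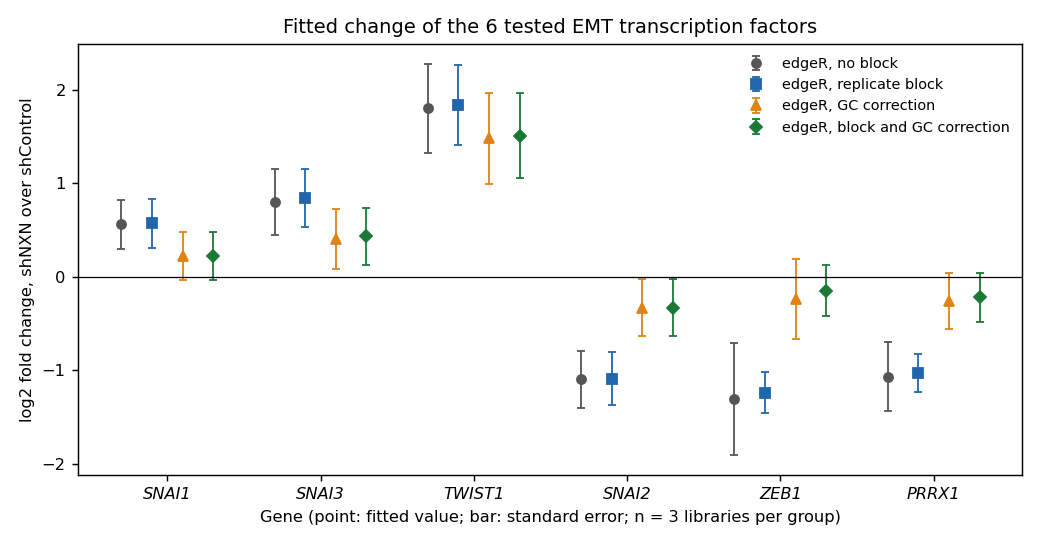
Log2 fold change of shNXN over shControl (points) with its standard error (bars, n = 3 libraries per group) for the 6 tested EMT transcription factors in 4 edgeR fits: without the block, with the replicate block, with the GC correction and with both. SNAI2, ZEB1 and PRRX1 lie between -1.31 and -1.03 in the fits without the correction and between -0.33 and -0.15 with it, and TWIST1 stays between 1.48 and 1.84.

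The partners and targets of these factors were described by 8 lists of 140 genes, of which 114 passed the filter. Without the block, 4 list genes passed the test, all lower in shNXN cells, and the background was 0.185% higher and 3.21% lower. Without shControl day 7 or day 11, or shNXN day 7 or day 9, no list gene and no feature at all passed. Without shControl day 9, 1 list gene passed, beside 248 of 14325 features. Without shNXN day 11, 26 list genes passed, beside 3706 of 14383 features. DESeq2 called 28, where the background was 6.74% higher and 16.8% lower. With the block 25 passed, and the background was 6.28% higher and 17.0% lower. With the block and the GC correction together 2 passed, both higher, and the background was 0.54% higher and 0.384% lower. Over all features the median log2 fold change was 0.03, and 0.04 in the blocked fit.

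Of the dimer partners of TWIST and their ID inhibitors, 6 of 7 were tested and 0 passed in either direction, without the block (median log2 fold change 0.2) or with it (0.26). After the GC correction the median was -0.07. In the fit without the block 2 of the 6 had an unadjusted p under 0.05, where 32.9% of all features did. DESeq2 called 1 higher and 1 lower (6.74% and 16.8% of all features). TCF12, an E protein that pairs with TWIST factors, was at 124 ± 16.3 CPM in shControl and 66.7 ± 25.9 CPM in shNXN cells (log2 fold change -0.9, adjusted p = 0.0848 from edgeR), but the difference in log2(FPKM + 1) was 0.07. TCF3, the E protein E2A, was at 457 ± 30.7 and 569 ± 26.5 CPM (0.32, adjusted p = 0.118 from edgeR), with -0.05 after the GC correction. ID1, which keeps E proteins from DNA, was at 161 ± 131 and 243 ± 66.5 CPM (0.6, adjusted p = 0.455 from edgeR).

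Of the 23 corepressors and chromatin cofactors, all were tested and 0 passed without the block. There 9 had an unadjusted p under 0.05 (32.9% of all features did), and DESeq2 called 8 (23.5%). With the block 2 rose and 3 fell (6.28% and 17.0% of all features), with a median of 0.11 in both edgeR fits. The 3 that fell were SUZ12 and EED, core subunits of the Polycomb repressive complex that SNAI1 can recruit, and the histone deacetylase HDAC2. SUZ12 went from 79.2 ± 20.6 to 21 ± 12.4 CPM (with the block -2.03, adjusted p = 0.0142 from edgeR), EED from 27.6 ± 3.01 to 12.1 ± 4.35 CPM (-1.23, adjusted p = 0.0198 from edgeR) and HDAC2 from 227 ± 12.7 to 96.8 ± 47.5 CPM (-1.34, adjusted p = 0.0243 from edgeR). All 3 are GC-poor, at 33% to 38.2%, and with the block and the GC correction their log2 fold changes were -0.87, 0.41 and -0.19, so that the direction of EED turned. The 2 that rose were WTIP and PARP1, which were named after their values were seen.

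Of 22 other transcription factors tied to EMT, 17 were tested and 0 passed without the block (median 0.29). There 3 had an unadjusted p under 0.05 (32.9% of all features did), and DESeq2 called 1 (23.5%). With the block SOX9 and HMGA2 passed, where 23.3% of all features did. SOX9, a progenitor factor, went from 178 ± 34.4 to 250 ± 15.2 CPM (with the block 0.51, adjusted p = 0.0366 from edgeR), and with the block and the GC correction it did not pass (0.31, adjusted p = 0.213 from edgeR). HMGA2, a chromatin protein that can induce SNAI1 and TWIST1, went from 110 ± 9.78 to 77.4 ± 10.9 CPM (with the block -0.51, adjusted p = 0.0415 from edgeR), but its sign turned to 0.71 in log2(FPKM + 1) and to 0.57 with the block and the GC correction. GSC, PRRX2 and TBXT had 0 counts in every library.

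Of 17 factors that maintain epithelial identity, 13 were tested and 0 passed without the block (median 0.27). There 2 had an unadjusted p under 0.05 (32.9% of all features did), and DESeq2 called 1 (23.5%). With the block 3 rose, where 6.28% of all features did. Among these 3 were ELF3, an epithelial ETS factor (151 ± 10.1 to 199 ± 7.31 CPM, with the block 0.4, adjusted p = 0.0395 from edgeR) and HNF4A, the hepatocyte nuclear receptor (with the block 0.45, adjusted p = 0.0317 from edgeR). With the block and the GC correction these values were 0.08 and 0.18, and no member of the list passed. ESRP1, an epithelial splicing regulator, was at 86 ± 16 and 63.2 ± 7 CPM (-0.44, adjusted p = 0.14 from edgeR).

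Of 23 epithelial genes that SNAI or ZEB factors repress, 20 were tested and 1 passed without the block, the tight junction gene OCLN, which fell from 82.4 ± 2.78 to 47.7 ± 2.32 CPM (-0.79, adjusted p = 0.0452 from edgeR). The median of the list was 0.11, and 4 had an unadjusted p under 0.05 (32.9% of all features did). DESeq2 called 1 higher and 2 lower (6.74% and 16.8% of all features). CDH1, which encodes E-cadherin, was at 346 ± 40.4 CPM in shControl and 339 ± 17.2 CPM in shNXN cells (log2 fold change -0.03, standard error 0.13, adjusted p = 0.87 from edgeR). With the block CLDN1, another tight junction gene, also fell (526 ± 173 to 286 ± 61.5 CPM, with the block -0.84, adjusted p = 0.0188 from edgeR) and the membrane protease ST14 rose (230 ± 15.1 to 296 ± 8.34 CPM, with the block 0.37, adjusted p = 0.0458 from edgeR). With the GC correction OCLN was at 0.21, CLDN1 at -0.13 and ST14 at -0.02, and none passed.

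Of 18 mesenchymal genes, 9 were tested and 0 passed without the block (median 0.16). There 1 had an unadjusted p under 0.05 (32.9% of all features did), and DESeq2 called 1 (23.5%). With the block 1 rose, where 6.28% of all features did. It was ITGA5, the fibronectin-binding integrin chain, which went from 25 ± 5.05 to 44.6 ± 2.66 CPM (with the block 0.85, adjusted p = 0.0247 from edgeR). With the block and the GC correction ITGA5 did not pass (0.55, adjusted p = 0.116 from edgeR). VIM, which encodes vimentin, was at 620 ± 527 and 604 ± 354 CPM (log2 fold change -0.04, standard error 0.62, adjusted p = 0.97 from edgeR), with both day 11 libraries above the others. CDH2, which encodes N-cadherin, was at 30.6 ± 9.49 and 25.3 ± 8.8 CPM (-0.28, adjusted p = 0.55 from edgeR). FN1, which encodes fibronectin, was at 4020 ± 387 and 4430 ± 528 CPM (0.14, adjusted p = 0.502 from edgeR) and passed in a single setting, with the block and the GC correction (0.79, adjusted p = 0.0473 from edgeR). MMP14, a membrane-bound metalloproteinase, and S100A4 did not pass (log2 fold changes 0.32 and 0.72), and MMP2, MMP9, CDH11 and THY1 had 0 counts in every library.

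Of the 10 kinases and phosphatase of Snail, 0 passed without the block (median -0.24, but 0.04 in log2(FPKM + 1)). There 3 had an unadjusted p under 0.05 (32.9% of all features did), and DESeq2 called 3 (23.5%). With the block, where 23.3% of all features passed, ATM fell (66 ± 10.6 to 19.5 ± 15.1 CPM, with the block -2.02, adjusted p = 0.0244 from edgeR) and CSNK1E rose (117 ± 5.41 to 155 ± 13.9 CPM, with the block 0.4, adjusted p = 0.0431 from edgeR). With the block and the GC correction ATM and CSNK1E were at -0.97 and 0.06 and did not pass. CTDSP1, a phosphatase that stabilises Snail, was at 138 ± 2.76 and 179 ± 14.9 CPM (0.37, adjusted p = 0.0954 from edgeR). Of the 20 ubiquitin ligases and deubiquitinases, 16 were tested and 11 had an unadjusted p under 0.05, where 32.9% of all features did. DESeq2 called 2 higher and 7 lower (6.74% and 16.8% of all features). In edgeR without the block 3 fell (median -0.51), where 3.21% of all features did. Of these, the F-box proteins FBXO11 (92.1 ± 10.2 to 29.1 ± 13.1 CPM, -1.66, adjusted p = 0.0473 from edgeR) and FBXL5 (50.1 ± 8.54 to 16.2 ± 7.16 CPM, -1.63, adjusted p = 0.0487 from edgeR) target Snail for degradation. The third, the deubiquitinase USP1 (102 ± 34.9 to 38.8 ± 4.8 CPM, -1.39, adjusted p = 0.0492 from edgeR), acts the other way. With the block 1 rose and 8 fell, where 6.28% and 17.0% of all features did.

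After the GC correction the medians of both enzyme lists were -0.01 and no member passed without the block. With the block and the correction together FBXO11, FBXL5 and USP1 stood at -0.8, -0.82 and -0.51 and did not pass, and PSMD14, a proteasome subunit of 32% GC named after its values were seen, passed at 1.22 (adjusted p = 0.0432 from edgeR), where the block alone gave -0.51. USP17L2 (DUB3), a deubiquitinase of Snail that the study examined and that is also named outside the rule, had 0 counts in all 6 libraries, and its family has near-identical copies whose reads the counting may have split or set aside.

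The genes whose pattern over the 6 libraries was most like that of a member were sought among 10648 named features with a mean of at least 5 CPM, by Pearson's r of log2 CPM. For SNAI1 they were NUMBL (r = 0.998) and APC2 (0.986), for SNAI2 ZNF253 (0.997) and CCDC18 (0.996), and for SNAI3 GUSB (0.992) and POP5 (0.988). For ZEB1 they were FAM120B and CTTNBP2NL (both 0.993), for TWIST1 ARHGAP33 (0.995) and FGFR1 (0.992), and for PRRX1 LNPK and RBM45 (both 0.995). The 6 points of each correlation share the days, depths and GC trends of the libraries, and no p is given.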

How the data were processed

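Per the labels, RNA of Hep3B cells was made into mRNA-seq libraries with a SMARTer kit. The authors deposited estimated counts, 1 per feature and library, of which 15.1% to 18.8% were not whole numbers, and an FPKM value for the same features. The aligner, counter and annotation are not given in the sources used here, and the submitters' processing notes name the builds GRCm38 and mm10, while the identifiers are human. Sharing of reads among transcripts makes counts of paralogs and overlapping genes uncertain. Of 20314 Ensembl identifiers, 19433 had a symbol, and all 8 members matched.

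Counts were rounded and tested over all 6 libraries in edgeR 4.0.16 (R 4.3.3) with TMM, filterByExpr, the quasi-likelihood test and Benjamini-Hochberg adjustment over 14071 features at 0.05. The standard error was the size of the log2 fold change divided by the root of F. CPM used TMM library sizes, and log2 CPM a prior count of 2. Alternatives were DESeq2 1.42.0, the replicate block, RLE factors, no scaling beyond library size, a filter of 10 counts per library or none, limma 3.58.1 on log2(FPKM + 1) and log2(FPKM + 0.1), each library left out in turn and a GC correction, in which a natural spline with 5 degrees of freedom on the GC content of the longest GENCODE 29 transcript (known for 90.5% of tested features) was fitted to each library and entered as an offset. Leaving out both day 11 libraries was added after seeing the data. The block is the replicate number, which the labels tie to the day. Deviations of same-numbered libraries from their group means correlated at 0.304, 0.309 and 0.451, and those of other pairs at -0.368 to 0.148. No pair of replicates agreed within sampling noise (chi-square per gene 21.1 to 82.9).

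The members and lists were chosen with earlier results of these data known. Named genes were the members, NXN, list genes called in the fit without the block, up to 3 per list with the smallest p, CDH1, CDH2, VIM, FN1 and the 2 most alike genes per tested member. Some genes that this rule names are not reported here. Permutation tests were exact and two-sided. Scripts were checked on simulated data and ran under Python 3.11.15, numpy 2.4.6, pandas 2.3.3, scipy 1.17.1 and matplotlib 3.10.9.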

Additional observations from a re-analysis of the deposited data

Results flagged for a closer look

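In 4 genes the log2 CPM difference of shNXN minus shControl changed sign between days, and with 1 library per group and day the difference between days was not tested. ZEB2 gave -0.93 on day 7, 0.99 on day 9 and 0.06 on day 11, a span of 1.91, at 8 counts or fewer per library. VIM gave 0.14, 0.55 and -0.28, a span of 0.83, and its level was 10.26 and 9.98 log2 CPM in the shControl and shNXN libraries of day 11 and between 8.17 and 8.71 in the other 4. FN1 gave 0.24, -0.22 and 0.38, a span of 0.6, and after the GC correction 0.98, 0.67 and 0.73, with 1 sign. CDH1 gave 0.11, -0.18 and -0.02, a span of 0.29.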

How the results depend on the processing

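No tested member and not NXN changed sign under any of its alternatives. Of the 6 tested members, 0 passed without the block (3.39% of all features did) and 2 in DESeq2 (23.5%). With the replicate block 4 members passed (23.3%), and without both day 11 libraries 1 did, ZEB1 (4519 of 14201 features). Those calls were SNAI2 at -1.08 in DESeq2 and -1.09 with the block, PRRX1 at -1.06 and -1.03, ZEB1 at -1.24 with the block and -1.13 without day 11, and TWIST1 at 1.84 with the block. With 1 library left out, 0 members passed in each case, where 0 to 3706 of all features did. The log2 fold changes then ran from 0.46 to 0.71 for SNAI1, -1.2 to -0.97 for SNAI2, 0.68 to 1.18 for SNAI3, -1.89 to -0.5 for ZEB1, 1.56 to 2.36 for TWIST1, -1.31 to -0.67 for PRRX1 and -0.71 to 0.44 for ZEB2, whose mean difference was 0.04 with all 6. NXN lost its call without shControl day 7 (-1.67), shControl day 11 (-1.82), shNXN day 7 (-1.82) or shNXN day 9 (-1.9), over a range of -1.9 to -1.67. TWIST1 could not be tested at 10 counts in every library, and it passed filterByExpr only through its shNXN libraries.

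Over all features, 477 passed without the block, 3311 in DESeq2, 3272 with the block, 929 under scaling by library size, 826 under RLE scaling, 818 unfiltered, 5 with the GC correction, 130 with both, 287 and 66 in limma with pseudocounts of 1 and 0.1, 0 to 3706 with 1 library left out and 4519 without day 11. The 0 came without shControl day 7, shControl day 11, shNXN day 7 or shNXN day 9, with 3426, 4229, 2706 and 2668 features at an unadjusted p under 0.05, and the 3706 without shNXN day 11. Of the list genes 4 passed, against 28 in DESeq2, 7 under RLE or library size scaling, 25 with the block, 0 with the GC correction, 2 with both, 0 in limma with a pseudocount of 0.1, 0 to 26 with 1 library left out and 40 without day 11. Ranked by CPM in place of FPKM, 2 members changed place in shControl. By detection, 7 members had a count in any library, 6 an FPKM above 0.1 in every library and 5 at least 10 counts in every library. The causes of these shifts were not tested. Members at fewer than 10 counts (ZEB2, and TWIST1 in shControl) are limited by depth.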
